A study of Mus musculus with 4 samples.

Results

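The 9 integrin chains described here are those named in glomerular biology as the matrix receptors of the capillary tuft: 6 α chains (Itga1, Itga3, Itga5, Itga6, Itga8, Itgav) and 3 β chains (Itgb1, Itgb3, Itgb5). They were chosen by symbol, with earlier results of these data known, and are 9 of the 52636 genes in the deposited count matrices. Their transcripts made up 241172 of all 124600182 unique molecular identifiers (UMIs, each standing for 1 captured RNA molecule) in the series. An integrin is a receptor made of 1 α and 1 β chain that binds extracellular matrix outside the cell and the actin cytoskeleton inside it. The β1 chain pairs with many α chains, among them α1 (collagen), α3 and α6 (laminins), α5 (fibronectin) and α8 (nephronectin and other RGD ligands), whereas αv pairs also with β3 and β5 and binds vitronectin, fibronectin, osteopontin and latent TGF-β. In the glomerulus, α3β1 anchors podocytes to the basement membrane and α8β1 marks mesangial cells.

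Glomeruli were isolated on a magnet from kidneys of young and aged mice perfused with magnetic beads, digested to single cells and profiled with droplet-based 3′ libraries, in 2 young and 2 aged preparations that received no treatment. The age in months, sex, strain and number of mice behind a library are not stated in the labels, so p-values measure the spread between these libraries, which may be partly technical. Each library held 18457791 to 42046542 UMIs in 5532 to 10621 barcodes, and 28000 cells were kept in all. Young replicate 2 stood apart. Its kept cells had a median of 1258 UMIs against 2715 to 3730 in the other 3 libraries, and only 35.9% of them could be named, against 95.7% to 97.1%. Clusters with markers of several cell types, or with low marker levels, were left unnamed and held 53.2% of its kept cells. Another 762 single cells with markers of an unrelated class were left out. The libraries shared at most 21 of their kept barcodes in any pair. Cells were grouped without any integrin gene, named from marker lists, and summed per class and library: 550 to 1764 podocytes, 1333 to 5995 endothelial cells, 206 to 697 mesangial cells, 38 to 60 parietal epithelial cells (the lining of Bowman's capsule) and 36 to 82 smooth muscle and renin cells per library. All 10 podocyte, 10 endothelial and 10 mesangial markers were detected in their own class in every library, and so were 8 of 9 parietal markers (Ptprz1 was at 0). A sum over a class cannot tell fewer expressing cells from less RNA per cell.

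The β chains are shown first by sequence, since they are the part of the receptor that connects to the cytoskeleton and since the 3 of them had different patterns in endothelial cells. Each line gives the last 150 coding bases of the principal transcript in GENCODE vM21 (GRCm38, + strand, stop codon left out), which encode the end of the chain inside the cell. Capitals mark codons for Asn-Pro-any-Tyr (NPxY), a motif through which talin binds β tails. Asn-any-any-Tyr sites without the Pro were not marked or counted.
Itgb1: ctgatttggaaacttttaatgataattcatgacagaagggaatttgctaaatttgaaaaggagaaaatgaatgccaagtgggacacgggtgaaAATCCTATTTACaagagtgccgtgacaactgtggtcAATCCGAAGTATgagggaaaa
Itgb3: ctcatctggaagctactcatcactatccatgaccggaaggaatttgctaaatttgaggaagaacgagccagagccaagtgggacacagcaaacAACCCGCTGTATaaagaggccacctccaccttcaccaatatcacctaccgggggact
Itgb5: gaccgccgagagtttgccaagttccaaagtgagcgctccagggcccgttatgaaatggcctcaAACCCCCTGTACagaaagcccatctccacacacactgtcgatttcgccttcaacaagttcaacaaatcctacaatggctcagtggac
The Itgb1 stretch lies within chr8:128726100-128732085, that of Itgb3 within chr11:104665546-104667142 and that of Itgb5 within chr16:33947825-33948749, each across 2 coding exons. Itgb1 carries 2 NPxY motifs in this stretch, and Itgb3 and Itgb5 carry 1 each. The Itgb1 and Itgb3 stretches align without a gap and share 91 of 150 bases.

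Itgav and Itgb5 encode the chains of αvβ5, and their RNA went opposite ways with age in mesangial cells, so the 250 bases before their start sites are shown, from the RefSeq promoter table (GRCm38.p6, both on the + strand). Capitals mark the GC box GGGCGG on either strand.
Itgav, chr2:83724147-83724396: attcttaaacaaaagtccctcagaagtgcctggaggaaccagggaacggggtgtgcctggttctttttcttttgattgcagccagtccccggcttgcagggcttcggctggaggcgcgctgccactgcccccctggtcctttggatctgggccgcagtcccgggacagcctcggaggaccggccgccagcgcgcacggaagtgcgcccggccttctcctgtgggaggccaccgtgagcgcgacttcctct
Itgb5, chr16:33829415-33829664: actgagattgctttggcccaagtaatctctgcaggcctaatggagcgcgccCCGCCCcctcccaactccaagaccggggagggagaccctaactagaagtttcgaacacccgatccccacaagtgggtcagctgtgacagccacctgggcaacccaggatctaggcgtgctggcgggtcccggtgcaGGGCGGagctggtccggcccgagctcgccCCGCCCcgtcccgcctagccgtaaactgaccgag
The Itgb5 window holds 3 GC boxes and the Itgav window none; 32.7% of the 32851 promoter windows in the table hold at least 1. Neither window holds CCAAT (in 33.85% of windows) or the AP-1 motif TGANTCA (in 6.75%), both searched on both strands; the 3 motifs do not overlap one another. The table held 7 of the 9 members, and Itga6 and Itgb3 were without an entry.

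In GRCm38 the α chains Itga8 (chr2:12106632-12301922, - strand), Itga6 (chr2:71745616-71858416, + strand) and Itgav (chr2:83724397-83806916, + strand) lie on chromosome 2. Itga3 (chr11:95044474-95076801, - strand) and Itgb3 (chr11:104608000-104670476, + strand) lie on chromosome 11. The others are Itga1 (chr13:114953096-115101964, - strand), Itga5 (chr15:103344286-103366763, - strand), Itgb1 (chr8:128685654-128733200, + strand) and Itgb5 (chr16:33829665-33949338, + strand). Itga1 shares its locus and strand with Pelo, and Itga1, Itga6, Itga8 and Itgav each overlap an annotated gene on the opposite strand. Whether the counting used strand is not given in the sources used here.

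Each chain had its own distribution over the cell classes. Levels are in CPM, meaning UMIs of the gene per 1000000 UMIs of a class in a library, after TMM scaling between libraries; unscaled CPM leave that scaling out. They are given as mean ± SD over the 4 libraries and compared between classes for 1 gene at a time, since 3′ counts of different genes are not on a common scale. Over 8 classes with at least 20 cells in every library, Itga8, the α8 chain, was highest in mesangial cells at 1860 ± 170 CPM. The next class, smooth muscle and renin cells, had 194 ± 67.9 CPM, and the remaining 6 classes had means of 2.82 to 6.44 CPM. The 10 mesangial markers summed in smooth muscle and renin cells to 22.1% to 39.0% of their mesangial level. Their part in the Itga8 and Itga1 values of that class was not tested. The collagen receptor chain Itga1 was also highest in mesangial cells, at 562 ± 26.1 CPM. It was followed by parietal cells at 327 ± 14.2 and smooth muscle and renin cells at 255 ± 60.0 CPM, whose library values overlapped, while endothelial cells had 51.4 ± 6.11 and podocytes 14.7 ± 4.51 CPM.

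The laminin receptor chains Itga3 and Itga6 had different cells. Itga3 was highest in podocytes at 237 ± 15.8 CPM, above parietal cells at 118 ± 27.2 CPM with no overlap of library values. Mesangial cells (80.1 ± 14.0 CPM) and endothelial cells (71.1 ± 8.73 CPM) overlapped each other. The podocyte marker list summed in parietal cells to 7.91% to 14.2% of its podocyte level. Its part in the parietal values of Itga3, Itgav and Itgb5 was not tested. Itga6 was highest in endothelial cells at 122 ± 35.2 CPM and next in parietal cells at 33.6 ± 16.3 CPM. In podocytes Itga6 was at 0.699 ± 0.803 CPM, from 12 UMIs in all, so it was near 0 in the class where Itga3 was highest. Itga5, the fibronectin receptor chain, was at 45.3 ± 3.61 CPM in endothelial cells and at 36.8 ± 6.47 CPM in monocytes and dendritic cells, and these 2 classes were not separated. Its mean was 4.60 ± 1.80 CPM in podocytes.

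Itgav was highest in parietal cells (198 ± 20.0 CPM) and podocytes (192 ± 15.1 CPM), whose library values overlapped. It was lowest in T and NK cells (20.2 ± 1.72 CPM) and endothelial cells (15.9 ± 2.96 CPM), which overlapped as well. The T and NK cell value rested on 8 UMIs, 1 to 3 per library, so its SD does not show precision. Mesangial cells, at 127 ± 42.2 CPM, overlapped podocytes. Its partner Itgb5 was highest in podocytes at 709 ± 30.3 CPM, 3.54 times its level in parietal cells (200 ± 42.1 CPM) with no overlap, and had 40.4 ± 12.8 CPM in endothelial and 40.1 ± 13.7 CPM in mesangial cells, which overlapped. Itgb3 had few counts anywhere. It was at 12.8 ± 6.62 CPM in endothelial cells, had 1 UMI in podocytes, and none in parietal cells, where 3 counts in the smallest library would be 16.8 CPM. In B cells (28.0 ± 18.7 CPM) and T and NK cells (21.0 ± 19.1 CPM) the Itgb3 values rested on 10 and 11 UMIs and overlapped the endothelial ones. Itgb1, the common partner, was present in every class, from 1804 ± 304 CPM in mesangial cells through 1219 ± 115 in podocytes and 974 ± 37.7 in endothelial cells to 75.9 ± 61.5 CPM in B cells.

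**Figure D1:**
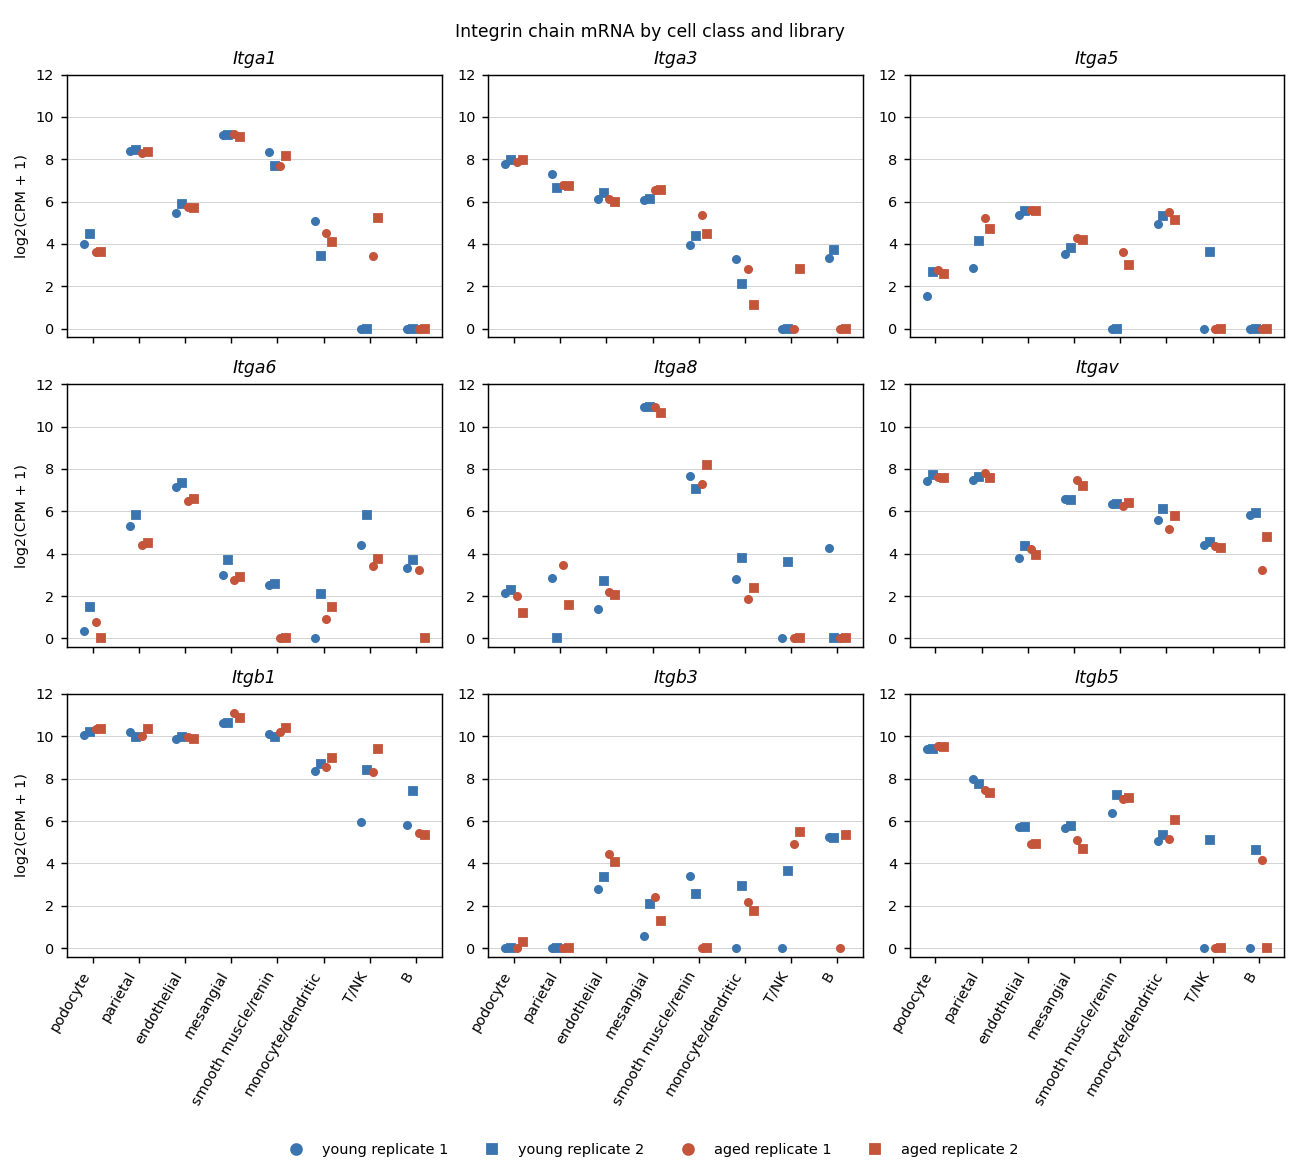
Level of each chain, log2(CPM + 1), in 8 cell classes; each point is 1 library, coloured by age group and shaped by replicate. Itga8 stands out in mesangial cells, Itga3 and Itgb5 are highest in podocytes, and Itga6 is highest in endothelial cells at both ages.

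The genes most like each chain over the 32 class by library points (8 classes in 4 libraries, which share cells' libraries and depth) were taken by Pearson r of log2(CPM + 1) among 12677 genes, as a description. For Itga8 these were Col6a3 (r = 0.936), Trpc4 (0.935) and Twist1 (0.932). For Itga1 they were Dtx3 (r = 0.908), Zhx3 (0.901) and Sept8 (0.901). Itga3 was most like Tmem59 (r = 0.939), Nectin2 (0.928) and the tight junction gene Tjp1 (0.925). For Itgb1 they were Cul4a (r = 0.949), Serpinb6a (0.949) and Slc48a1 (0.927), and for Itgb5 Pbx2 (0.917), Decr1 (0.904) and Zfyve21 (0.893). Itgav was most like Plekhh2 (r = 0.906), Plxdc2 (0.879) and Myof (0.879), and Itga5 most like Arrdc4 (0.853), Cmtm3 (0.850) and the endothelial receptor gene Acvrl1 (0.848). Itga6 and Itgb3 had the least similar neighbours, at r = 0.808 for Dnm3, 0.799 for Elf1 and 0.790 for Mpped2, and at r = 0.746 for Usp38, 0.724 for Gimap1 and 0.721 for Ppp1r16b. Among the members themselves Itga1 and Itgb1 had the highest r (0.846), Itga3 and Itgb1 the next (0.784), and Itgb3 and Itgb5 the lowest (-0.652). Outside endothelial cells Itgb3 had few UMIs, from 0 in parietal to 33 in mesangial cells, so its r values rest largely on counts near 0.

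In podocytes no member was called with age. Of 7 members tested, 0 passed an adjusted p of 0.05 by edgeR's quasi-likelihood test (adjusted over all genes tested in the class), while 6.47% of all genes tested did. DESeq2 also called 0. An unadjusted edgeR p under 0.05 was reached by 2 of the 7 and by 1845 of all 10846 genes tested. A missed threshold with 2 libraries per age does not show that a member was unchanged. Itga6 and Itgb3 had too few counts to be tested. Values by library are given throughout as young 1, young 2, aged 1 and aged 2. Itga3 was at 217, 246, 232 and 252 CPM, with overlapping groups and a log2 fold change of 0.07 (95% interval -0.20 to 0.34). Itgb1 was at 1073, 1181, 1305 and 1317 CPM, both aged libraries above both young ones, with a log2 fold change of 0.22 (-0.07 to 0.51) and an adjusted p of 0.492. Itgb5 was at 681, 686, 741 and 730 CPM, a log2 fold change of 0.11 (-0.17 to 0.39). Itgav overlapped between the ages at 173, 208, 199 and 188 CPM, a log2 fold change of 0.03 (-0.25 to 0.30). The 2 members with an unadjusted p under 0.05 were low in this class. Itga1 was at 15.2, 20.9, 11.3 and 11.4 CPM, a log2 fold change of -0.61 ± 0.22 (SE; adjusted p 0.0923), and without young replicate 1 it passed the test at -0.88 (adjusted p 0.0284). Itga5 was at 1.95, 5.46, 5.94 and 5.07 CPM, with overlapping groups. Itga8 was at 3.38, 3.94, 3.06 and 1.27 CPM, lower in both aged libraries, from 26, 13, 17 and 6 UMIs, with a log2 fold change of -0.68 (-1.58 to 0.22) and an adjusted p of 0.484 by edgeR. The groups did not overlap for 4 of the 7, against 46.3% of all genes tested.

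In endothelial cells 3 of 9 members changed: the laminin receptor chain Itga6 and the αv partner Itgb5 fell, and the other αv partner, Itgb3, rose. Among all 13048 genes tested 5.53% were called, 3.74% higher and 1.79% lower in aged. Itgb5 was at 51.6, 51.4, 28.9 and 29.6 CPM, so that the young libraries nearly coincided and both aged ones lay below them. Its log2 fold change was -0.82 ± 0.14 (SE), 1.76-fold lower in aged, with an adjusted p of 0.00236 by edgeR, and it was called whichever library was left out. Itga6 was at 142, 161, 88.2 and 95.7 CPM, again with the young libraries above both aged ones. Its log2 fold change was -0.72 ± 0.14, 1.64-fold lower in aged, with an adjusted p of 0.00521 by edgeR. Without young replicate 2 it was -0.62 (adjusted p 0.0513) and without aged replicate 1 it was -0.65 (adjusted p 0.0604).

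Itgb3, the chain better known from platelets and from angiogenic endothelium, was at 5.84, 9.28, 20.8 and 15.5 CPM, from 37, 39, 318 and 237 UMIs. The aged values were the higher ones in every pairing of libraries, by a log2 fold change of 1.31 ± 0.24, 2.47-fold, with an adjusted p of 0.00422 by edgeR. Without young replicate 1 its log2 fold change was 0.97 and the adjusted p 0.106. The platelet chain Itga2b, the partner of Itgb3 in platelets, was at 3.49, 3.08, 4.75 and 4.43 unscaled CPM in the same cells, higher in both aged libraries. Of 4 other platelet genes, Pf4 was at 3.17, 1.80, 2.00 and 2.50, Ppbp at 1.11, 0, 0.562 and 0.312 and Gp9 at 1.59, 0.771, 2.37 and 0.749, all with overlapping ages. Gp1bb, the most abundant of the 5, was lower in both aged libraries, at 42.1, 38.0, 13.4 and 8.74. It was also a leading gene of the endothelial cluster led by Cnmd and Aqp1, and the source of its UMIs was not tested. These 5 genes were chosen after values were seen, and none of these values was tested. Macrophage markers, all 9 of them summed, were at 69.2, 79.1, 198 and 154 unscaled CPM, higher in both aged libraries, with 4, 8, 9 and 9 of the 9 detected. Macrophages of the aged libraries themselves held 1 and 0 UMIs of Itgb3 in 2971829 and 4241900 UMIs.

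With no filter on low counts, edgeR called 0 of 23253 genes in endothelial cells, and the 3 members had adjusted p-values of 0.313 to 0.423. The specific podocyte markers (6 genes), whose class has the highest Itgb5 level, were at 139, 171, 154 and 126 unscaled CPM in endothelial cells (the whole list of 10, all detected, at 907, 1315, 815 and 779), and all 3 members were also called in the cells without any of these UMIs. Specific mesangial markers (8 genes) were higher in both aged libraries, at 46.7, 68.1, 111 and 122 unscaled CPM (the whole list of 10, all detected, at 1254, 1060, 1400.1 and 1173), and their part was not tested. The other 6 members were not called. Itgb1 was at 939, 999, 1013 and 945 CPM with a log2 fold change of 0.01 (95% interval -0.33 to 0.35), Itgav at 12.8, 19.3, 17.4 and 14.2 CPM with 0.01 (-0.44 to 0.46), and Itga1 at 43.2, 58.0, 52.5 and 51.7 CPM with 0.05 (-0.27 to 0.38). Itga3 was at 68.8, 83.5, 69.1 and 63.0 CPM and Itga5 at 40.1, 46.1, 48.4 and 46.6 CPM, with log2 fold changes of -0.20 (-0.50 to 0.10) and 0.15 (-0.16 to 0.45). Itga8 was low, at 1.58, 5.47, 3.52 and 3.20 CPM, with 0.06 (-0.82 to 0.94). The groups did not overlap for 4 of the 9 members, against 49.5% of all genes tested.

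**Figure D2:**
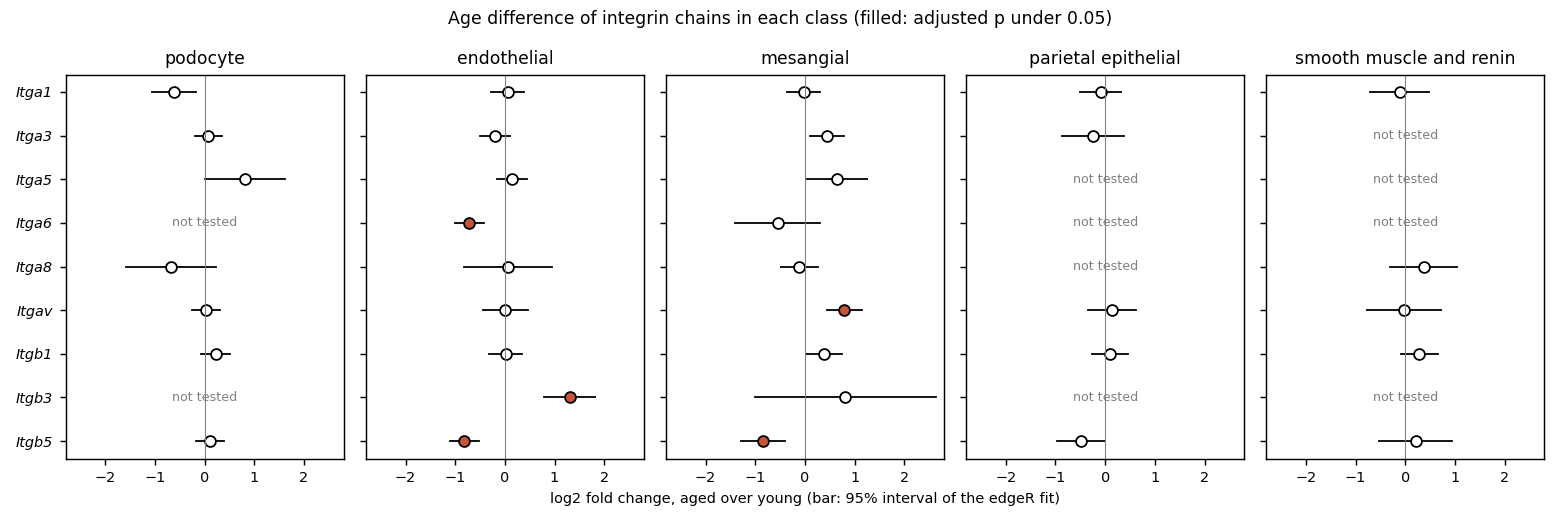
Log2 fold change, aged over young, of each member in 5 classes, with the 95% interval of the edgeR fit; filled points passed an adjusted p of 0.05. Itga6 and Itgb5 lie left of 0 and Itgb3 right of 0 in endothelial cells, and Itgav lies right and Itgb5 left of 0 in mesangial cells.

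The endothelial clusters that held most cells differed between the ages. Before mixed cells were left out, the Sele, Plaur and Gpihbp1 cluster (an activated set by its markers) held 106 and 59 young against 2041 and 960 aged cells. The members were therefore also read within the 8 endothelial clusters that had at least 20 cells in every library, as unscaled CPM. No test was run within clusters, and no count over all genes was made there. Itgb5 was lower in both aged libraries than in both young ones in 7 of the 8 clusters. The exception was the cluster led by Cnmd and Aqp1, at 19.8, 18.8, 22.2 and 18.7. In the Sele cluster Itgb5 was at 51.0, 59.6, 30.7 and 30.6, and in the cluster led by Esm1 and Igfbp3 it was at 69.5, 85.2, 17.4 and 24.1, the widest gap between the ages. Itga6 was lower in both aged libraries in 5 of the 8 clusters. In the Esm1 cluster Itga6 was at 116, 116, 38.9 and 45.2, and in the Sele cluster at 149, 164, 94.5 and 116, while the groups overlapped in the clusters led by Tspan8, Cnmd and Ddit4l.

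Itgb3 was higher in both aged libraries in 4 of the 8 clusters, on few young UMIs. Itga8, low and not called in this class, was also higher in both aged libraries in 4 of the 8. In the Sele cluster Itgb3 was at 3.64, 14.9, 27.3 and 20.2, from 1, 3, 157 and 79 UMIs. In the largest glomerular capillary cluster, led by Ier5l and Gata5, it was at 6.46, 4.77, 13.0 and 13.0, from 9, 4, 39 and 51 UMIs. In the Esm1, Meg3, Tspan8 and Cnmd clusters the ages overlapped for Itgb3. Restricting the class to the clusters led by glomerular capillary markers kept all 3 calls.

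**Figure D3:**
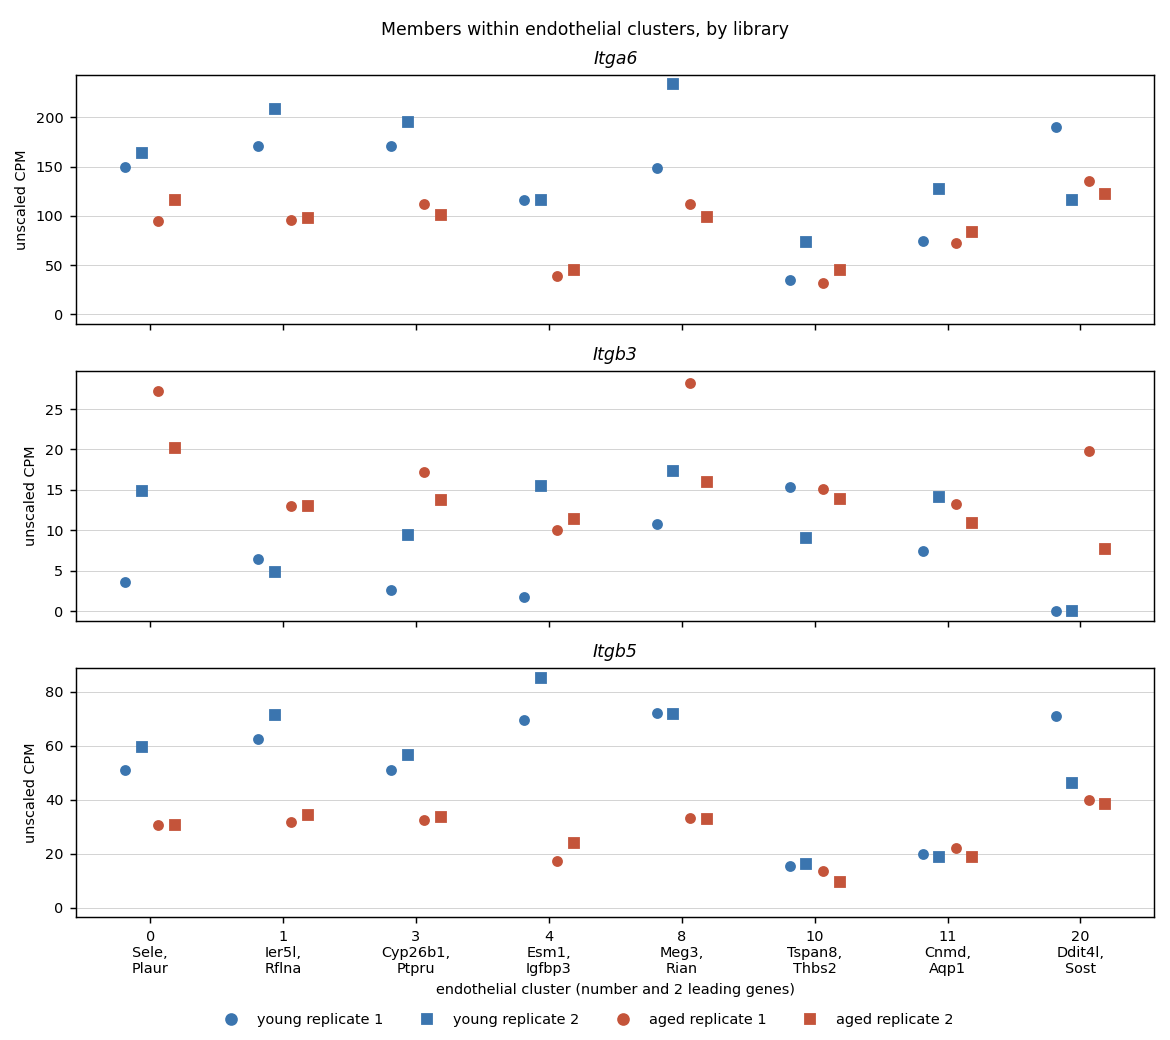
Itga6, Itgb3 and Itgb5 (unscaled CPM, on the linear axis) in 8 endothelial clusters; each point is 1 library. Itgb5 is lower in both aged libraries in 7 clusters, Itga6 in 5, and Itgb3 is higher in 4.

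In mesangial cells 2 of 9 members changed, and they were the chains of αvβ5: Itgav rose and Itgb5 fell. Among all 10958 genes tested 7.45% were called, 4.66% higher and 2.78% lower in aged. An unadjusted edgeR p under 0.05 was reached by 5 of the 9 members and by 2425 of all 10958 genes. Itgav was at 94.6, 90.9, 179 and 143 CPM, both aged libraries above both young ones. Its log2 fold change was 0.79 ± 0.17 (SE), 1.73-fold, with an adjusted p of 0.0106 by edgeR. Itgb5 was at 49.8, 53.1, 33.0 and 24.4 CPM, below the young libraries in both aged ones, with a log2 fold change of -0.84 ± 0.21, 1.79-fold lower, and an adjusted p of 0.0243 by edgeR. Leaving out young replicate 1 or young replicate 2 ended both calls, at log2 fold changes of 0.83 and 0.77 for Itgav (adjusted p 0.177 and 0.179) and of -0.89 and -0.79 for Itgb5 (adjusted p 0.179 and 0.197). DESeq2 called Itgav (adjusted p 0.0203) but not Itgb5 (-0.83, adjusted p 0.129), and with cells thinned to 1000 UMIs edgeR called neither Itgav (0.63, adjusted p 0.195) nor Itgb5 (-0.76, adjusted p 0.435). In the aged libraries macrophages were at 108 and 85.1 unscaled CPM for Itgav and at 187 and 172 for Itgb5. Macrophage markers in mesangial cells summed to 62.5, 67.8, 192 and 228 unscaled CPM, with 3, 5, 8 and 8 of 9 detected, 0.28% to 1.03% of their level in macrophages. Specific podocyte markers were at 165, 235, 97.4 and 60.1 (the whole list of 10, all detected, at 400.0, 506, 291 and 242), lower in both aged libraries, as Itgb5 was. In mesangial cells without these podocyte UMIs the Itgb5 difference was -0.90 on the log2 scale (adjusted p 0.0638 by edgeR). Specific endothelial markers (8 genes) were at 865, 792, 917 and 744 unscaled CPM there, with overlapping ages. The whole list of 10, all detected, was higher in both aged libraries, at 1735, 1569, 2156 and 1881.5. That is 11.2% to 15.4% of its level in endothelial cells. The part of any of these marker sets in the 2 results was not tested further.

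**Figure D4:**
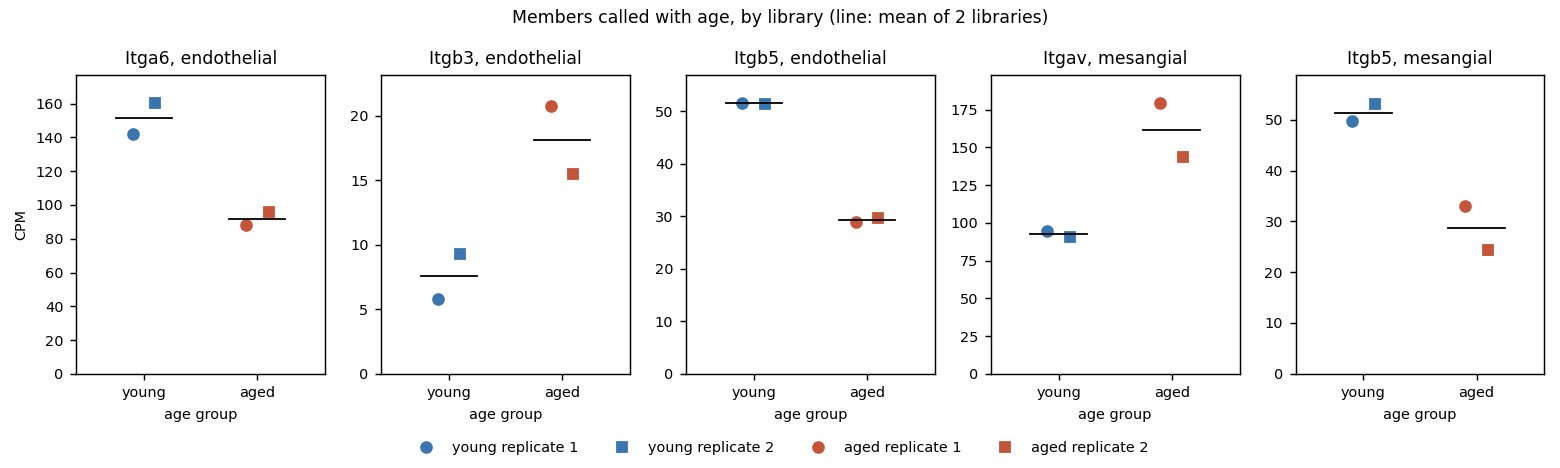
CPM of the members called with age, Itga6, Itgb3 and Itgb5 in endothelial cells and Itgav and Itgb5 in mesangial cells; points are libraries and lines are means of 2 libraries. The young and aged libraries do not overlap in any panel.

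The chains with the highest mesangial levels were not called. Itga8 was at 1947, 1918, 1968 and 1606 CPM, with overlapping groups and a log2 fold change of -0.11 (95% interval -0.48 to 0.26). Itga1 was at 573, 560, 587 and 526 CPM, also overlapping, with a log2 fold change of -0.03 (-0.35 to 0.30). Itgb1 was at 1561, 1572, 2201 and 1880 CPM, both aged libraries higher, with a log2 fold change of 0.38 ± 0.17 and an adjusted p of 0.200. Without aged replicate 2 Itgb1 passed the test, at 0.49 (adjusted p 0.00503). Itga3 was at 67.5, 68.4, 91.1 and 93.3 CPM (adjusted p 0.116 by edgeR) and Itga5 at 10.3, 12.9, 18.4 and 17.2 CPM (adjusted p 0.198), both with separate groups. Itga6 and Itgb3 were low, at 5.83 to 12.1 and at 0.493 to 4.32 CPM. The part of the endothelial markers given above in these low values was not tested. The groups did not overlap for 6 of the 9, against 53.3% of all genes tested, and the median log2 fold change of the 9 was 0.38 against -0.01 for all genes.

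The young and aged mesangial cells lay mostly in different clusters. Before mixed cells were left out, the cluster led by Gucy1a3, Steap4 and Rgs4 held 403 and 271 young against 28 and 19 aged cells. Those led by Mgp, by Cxcl13 and Rab3c, and by Ccl2 and Cxcl13 held mostly aged cells. After mixed cells were left out, the Gucy1a3 cluster kept 283 and 191 young cells and 27 of aged replicate 1. Only aged replicate 1 had enough cells in the Gucy1a3 cluster to be read beside the young ones. There Itgav was at 97.0 and 95.4 unscaled CPM in the young libraries and 163 in aged replicate 1, and Itgb5 at 50.9 and 56.9 against 25.7. The aged values there rest on 27 cells, with 19 UMIs of Itgav and 3 of Itgb5, and were not tested. In the 3 mostly aged clusters Itgav ranged from 126 to 206 and Itgb5 from 23.5 to 32.2 unscaled CPM, above the young Gucy1a3 values for Itgav and below them for Itgb5.

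In parietal epithelial cells 0 of the 5 members tested were called, with 4.07% of all genes called, and DESeq2 called 0 as well. A single member had an unadjusted edgeR p under 0.05, as did 877 of all 4696 genes tested. It was Itgb5, at 253, 214, 175 and 159 CPM, with separate groups and a log2 fold change of -0.49 ± 0.22 (adjusted p 0.258 by edgeR). The podocyte marker list was also lower in both aged libraries there, at 14.2%, 11.4%, 8.67% and 7.91% of its podocyte level. Podocytes had the highest Itgb5 level, and the part of these markers in the parietal Itgb5 values was not tested. Itga1 was at 329, 346, 313 and 320 CPM, Itga3 at 158, 98.8, 111 and 105 CPM, Itgav at 177, 198, 225 and 192 CPM and Itgb1 at 1165, 1015, 1042 and 1295 CPM. The groups did not overlap for 2 of the 5, against 48.8% of genes tested. Itga5, Itga6, Itga8 and Itgb3 were below the count filter. In smooth muscle and renin cells 0 of 5 were called by edgeR and by DESeq2, with 1.22% of all genes called by edgeR. None of the 5 was under an unadjusted edgeR p of 0.05, while 433 of all 3511 genes were. Itga8 was at 200.1, 134, 155 and 287 CPM there, Itga1 at 324, 203, 207 and 287 CPM, Itgav at 81.0, 79.3, 74.7 and 84.0 CPM, and Itgb5 at 81.0, 149, 132 and 133 CPM, all overlapping. Specific mesangial markers (8 genes) were higher in both aged libraries there, at 1875, 1797, 3284 and 3469 unscaled CPM. The whole list of 10, all detected, was at 2476, 2388, 3986.5 and 4211.5, and its part in these values was not tested. Itga3, Itga5, Itga6 and Itgb3 were below the count filter there. For 1 of the 5, Itgb1 (1091, 1001, 1195 and 1351 CPM), the groups did not overlap, against 43.2% of genes tested.

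The age effects themselves were compared between classes by the age by class interaction, with the library as a block. Podocytes differed from endothelial cells for 2 of 9 members, while 7.15% of all genes did. The age effect on Itgb5 was lower in endothelial cells than in podocytes by 0.90 ± 0.12 on the log2 scale (adjusted p 4.70e-06 by edgeR), the fall in endothelial cells standing against 0.11 in podocytes. For Itga1 the age effect was higher in endothelial cells by 0.73 ± 0.20 (adjusted p 0.0206). Leaving out any 1 of the 4 libraries left 1 member called in this comparison. Podocytes differed from mesangial cells for Itgav, by 0.81 ± 0.18 (adjusted p 0.00418), and for Itgb5, by -0.90 ± 0.21 (adjusted p 0.00830), 2 of 9 against 4.94% of all genes. Without young replicate 2 neither was called. Between endothelial and mesangial cells no member passed by edgeR, with 2.74% of all genes called. Itgav had an adjusted p of 0.0521 by edgeR and Itga3 of 0.0568. An unadjusted p under 0.05 was reached by 3 of 9, and the share of all genes at that p is not given here. With another library scaling (relative log expression) 2 members passed. For Itgb5 the age effects in these 2 classes, -0.82 and -0.84, differed by -0.04 ± 0.21.

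Other genes of the adhesion pathway were counted from lists of 17 other integrin chains, 32 linkers and activators, 15 signalling proteins and 23 ligands. The lists were written with earlier results of these data known, so a share above that of all genes may reflect how they were chosen. Over the 4 lists 2 of 54 genes tested were called in podocytes (3.70%, against 6.47% of all genes), 5 of 66 in endothelial cells (7.58% against 5.53%), 8 of 64 in mesangial cells (12.5% against 7.45%) and 9 of 47 in parietal cells (19.1% against 4.07%), and these shares were not tested against each other. In podocytes 2 of 27 tested linkers rose and none fell, a share of 7.41% that is near that of all genes: Lims2 (53.9, 48.5, 75.9 and 82.8 CPM) and Lims1 (193, 196, 250 and 325 CPM), which encode the PINCH adaptors that bind integrin-linked kinase. None of the 3 other chains, 12 signalling genes and 12 ligands tested was called there. In endothelial cells, where Itga6 fell, the laminin chain Lamb1 fell from 75.4 and 78.5 to 34.5 and 31.0 CPM, a log2 fold change of -1.23 ± 0.14 (adjusted p 8.28e-05 by edgeR). The α8β1 ligand nephronectin, Npnt, fell from 48.9 and 52.6 to 17.2 and 27.5 CPM. The αv ligand Edil3 fell from 20.4 and 23.5 to 15.3 and 10.7 CPM, making 3 of 15 ligands lower and none higher. Of 31 linkers the actin crosslinker Actn1 rose and talin 2, Tln2, fell, a share (6.45%) near that of all genes, and none of 7 other chains and 13 signalling genes was called.

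In mesangial cells, where Itgav rose and Itga8 was not called, 3 of 17 ligands rose and 2 fell. Tenascin C, Tnc, rose from 37.9 and 37.8 to 177 and 176 CPM, the laminin chain Lama2 from 6.90 and 7.24 to 26.1 and 31.7 CPM, and Tgfb1, whose latent form is bound by αv integrins, from 125 and 95.8 to 268 and 166 CPM. Npnt fell from 20.2 and 28.2 to 7.77 and 3.68 CPM and Col4a3 from 25.1 and 20.1 to 11.0 and 6.31 CPM. Both Npnt and Col4a3 are podocyte genes as well, and the podocyte markers given above were also lower in both aged libraries. Of 5 other chains Itga4 fell from 397 and 465 to 241 and 223 CPM (log2 fold change -0.89 ± 0.15, adjusted p 0.00344 by edgeR), and the leukocyte chain Itgam rose on 1, 0, 17 and 23 UMIs, beside the macrophage markers given above. Of 28 linkers Zyx, the focal adhesion protein zyxin, rose and none fell (3.57%, below the share of all genes), and none of 14 signalling genes was called.

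In parietal cells, where no member was called, Itgb8, another αv partner, rose from 69.6 and 71.3 to 175 and 157 CPM (log2 fold change 1.22 ± 0.29, adjusted p 0.0274 by edgeR), 1 of 2 other chains tested. Vinculin, Vcl, and Actn1 rose among 24 linkers, to 511 and 619 from 259 and 302 CPM for Vcl and to 585 and 751 from 291 and 390 CPM for Actn1, and the docking protein gene Bcar1 among 7 signalling genes. Of 14 ligands osteopontin, Spp1, and Tnc rose, while Col4a3, Col4a4 and Npnt fell. Specific podocyte markers were also lower in both aged libraries in these cells, at 2034, 1367, 1183 and 1061 unscaled CPM (the whole list of 10, all detected, at 3479, 2795, 2124 and 1936). Specific smooth muscle and renin markers were higher in both, at 123, 153, 313 and 676 unscaled CPM. That whole list of 9 was at 134, 158, 340 and 715, with 4, 3, 4 and 5 detected and Cnn1, Ren1, Akr1b7 and Rgs5 at 0, which is 0.439% to 2.33% of its level in smooth muscle and renin cells. The part of either marker set in these calls was not tested. The parietal class also joined 2 clusters whose age mix differed, counted here before mixed cells were left out. The cluster with higher parietal marker levels held 16 and 18 young against 43 and 39 aged cells. The other held 25 and 33 young against 10 and 25 aged cells. The part of this mix in the parietal values was not tested. In smooth muscle and renin cells 0 of 3 chains, 21 linkers, 7 signalling genes and 9 ligands were called by edgeR.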

How the data were processed

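The authors deposited raw UMI counts per gene and barcode for 4 libraries, 1 matrix each. Per the labels' protocols, Cell Ranger 3.1.0 aligned reads to GRCm38, whereas the submitters' processing notes name Cell Ranger 6.0.1. The members and gene lists were chosen with earlier results of these data known. Barcodes with at least 500 genes and at most 20% mitochondrial UMIs were kept. Scrublet's automatic threshold marked 134 of 29876 cells, so instead the highest scores were removed at 0.8% per 1000 barcodes (1876 cells). Scanpy 1.11.5 and leidenalg 0.10.2 made 36 clusters (2000 variable genes without integrins, 30 components, resolution 1, no integration). Clusters were named from marker lists, with thresholds set after seeing the data; 26 were named, and clusters or cells with markers of an unrelated class were left out. Counts were summed per class and library (at least 20 cells each) and tested across all genes with edgeR 4.0.16 (TMM, default count filter, quasi-likelihood F test, Benjamini-Hochberg), checked on simulated data, with DESeq2 as an alternative. In the simulated data 42% to 68% of 2-fold and 95% to 100% of 4-fold changes were recovered, depending on the class. The simulated spread between libraries was set to 1 value for all genes. CPM is TMM-scaled unless called unscaled. Members are named always; pathway genes are named when called, separate between ages and among the 4 smallest p-values per list and direction. Itgam was matched by gene ID. Positions come from GENCODE vM21. Intervals of log2 fold changes come from the edgeR fit and include the spread between libraries. Limits from counts cover counting error only.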

Additional observations from a re-analysis of the deposited data

Results flagged for a closer look

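The age effect of 3 members differed between cell classes by the interaction test, which compares the aged over young log2 fold change of 1 class with that of another. For Itgb5 the endothelial effect minus the podocyte effect was -0.90 on the log2 scale, and the mesangial effect minus the podocyte effect was also -0.90. For Itgav the mesangial effect was above the podocyte effect by 0.81. For Itga1 the endothelial effect was above the podocyte effect by 0.73, on podocyte values of 15.2, 20.9, 11.3 and 11.4 CPM. The Itga1 difference rests on 303 podocyte UMIs of Itga1 in all.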

How the results depend on the processing

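The libraries number 2 per age, so a single library can end a call, and depth limits the low members: Itga6 and Itgb3 in podocytes and 4 members each in parietal and smooth muscle and renin cells were too sparse to test. The 5 calls kept their direction in every alternative run. Itgb5 in endothelial cells was called in 16 of 17 alternatives (log2 fold changes -0.93 to -0.77), Itgb3 in 15 (0.97 to 1.63) and Itga6 in 14 (-0.85 to -0.62). In mesangial cells Itgav was called in 13 of 16 (0.63 to 1.11, adjusted p up to 0.195) and Itgb5 in 11 (-1.06 to -0.63, up to 0.435). Parietal cells formed no class at resolution 0.5, at resolution 2 or with doublets kept, so those alternatives gave no value there. The alternative without podocyte marker UMIs was chosen after seeing the data.

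The same-numbered libraries did not deviate together (r between -0.05 and 0.06 over 5 classes). With the replicate block 3 endothelial, 2 mesangial and 0 podocyte members were called, as without it. The endothelial count of 3 was 0 with no filter on low counts and 2 to 3 leaving out 1 library. The mesangial count of 2 was 1 with DESeq2 (Itgav), 0 after thinning to 1000 UMIs, 1 in cells without podocyte marker UMIs (Itgav) and 0 to 3 leaving out 1 library. With mixed cells kept it was 3, Itga6 being called too. The podocyte count of 0 became 1 without young replicate 1 (0 to 1). Interactions went from 2 to 1 (podocyte against endothelial, 1 in every such fit), from 2 to 0 to 2 (podocyte against mesangial) and from 0 to 0 to 2 (endothelial against mesangial, 2 with relative log expression). Counts of all genes called ranged from 212 to 881 around 702 in podocytes, from 0 to 1275 around 721 in endothelial and from 86 to 1789 around 816 in mesangial cells. The cause was not tested.

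Signs turned in 41 of 522 alternative values, none of them called in either fit. Log2 fold changes that turned were, with DESeq2, Itga8 in endothelial cells (-0.0070), and with no filter Itga1 in mesangial (0.022) and parietal cells (0.052). With at most 10% mitochondrial UMIs Itga1 turned in smooth muscle (0.045). With mixed cells kept, Itga1 (0.22), Itga5 (-0.092) and Itga8 (0.23) turned in mesangial cells and Itga8 (-0.35) and Itgb5 (-0.21) in smooth muscle. Resolution 0.5 turned Itgav in smooth muscle (0.022), and resolution 2 Itga1 (0.050) and Itgav (0.18) there. Thinning turned Itgav in endothelial (-0.099), Itga1 (0.062), Itgav (-0.11) and Itgb1 (-0.31) in parietal cells and Itga1 in smooth muscle (0.11). Capillary clusters alone turned Itga5 (-0.22) and Itgb1 (-0.049), and cells without podocyte marker UMIs Itgb1 in endothelial (-0.0031) and Itga1 in mesangial cells (0.011).

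Leaving out 1 library gave, in podocytes, Itga3 from -0.021 to 0.16 and Itgav from -0.11 to 0.15. In endothelial cells it gave Itga1 from -0.15 to 0.27, Itga8 from -0.69 to 1.09, Itgav from -0.28 to 0.31 and Itgb1 from -0.031 to 0.067. In mesangial cells it gave Itga1 from -0.10 to 0.051, Itga8 from -0.26 to 0.028 and Itgb3 from -0.21 to 2.43. In parietal cells it gave Itga3 from -0.53 to 0.17 and Itgb1 from -0.050 to 0.27, and in smooth muscle Itga1 from -0.39 to 0.25, Itga8 from -0.093 to 0.77, Itgav from -0.085 to 0.062 and Itgb5 from -0.18 to 0.72.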
